A study of Mus musculus with 30 samples.

Results

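Dendritic cells labelled as Rubcn knockout (KO) were compared with wild-type (WT) dendritic cells after 4 h with apoptotic Jurkat cells. Jurkat is an established line of human leukaemic T cells and serves here as the engulfed material. The comparison takes 6 of the series' 30 RNA sequencing libraries, 3 KO and 3 WT, chosen by genotype, treatment and time in the sample titles, and every gene of the count table, of which 14808 of 25611 had enough counts to be tested. Both genotypes were grown from bone marrow for 6 to 7 days in FLT3L, a growth factor for dendritic cells, at 200 ng/ml. The other libraries, also in groups of 3, were untreated or had received ovalbumin protein (OVA) for 30 min or 4 h or Jurkat cells for 30 min, in both genotypes. The labels give neither the design of the Rubcn allele nor whether replicates came from separate mice, so p-values measure only the spread between these libraries, which may be technical.

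Rubcn encodes Rubicon, a subunit of a class III phosphatidylinositol 3-kinase complex. The complex acts in LC3-associated phagocytosis, in which LC3 is coupled to the membrane of a phagosome and promotes digestion of its cargo, for instance a dead cell. Rubicon is also known to restrain canonical autophagy. Dendritic cells sense nucleic acids of engulfed cells and can answer with type I interferons, which act through their receptor to raise a large set of interferon-stimulated genes.

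The 6 libraries held 41448924 to 46913990 counts. KO replicate 2 stood apart from the other 5 libraries. Rn45s, the ribosomal RNA precursor, took 3.90% of its counts, against 0.109 to 0.201% in the others, and replication-dependent histone genes summed to 79.1 CPM (the usual depth-normalised count, here always on library sizes scaled by TMM, the trimmed mean of M values), against 44.8 to 52.4 CPM. WT replicate 2 lay farthest from KO on the first principal component of the 6 libraries, at 23.6 against 14.8 and 17.1 for the other WT libraries. Results that rest strongly on either library are given with and without it, and smaller losses of calls are not all given.

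Rubcn itself, on chr16:32821702-32868366 (minus strand, mm10), was lower in KO but far from absent. Its level was 49.05, 44.4 and 50.5 CPM in KO and 58.3, 62.3 and 56.05 CPM in WT. The KO libraries lay below the WT libraries without overlap. The log2 fold change of KO over WT was -0.30 (standard error, SE, 0.050, edgeR quasi-likelihood test, Benjamini-Hochberg false discovery rate, FDR, 8.97e-05), so that 81.5% of the WT level remained. It was -0.21 (edgeR FDR 0.0015) when libraries were scaled to total counts. Counts summed over the gene do not show which part of the transcript is present.

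At 4 h with Jurkat cells, 7 of the 8 largest falls in KO by the naming rule were interferons or interferon-stimulated genes, and the other was the chemokine Xcl1. Of the 8 largest rises, 4 were RNAs that rested on KO replicate 2, and the rest were the basophil and mast cell genes Mcpt8 and Cpa3 and the genes Jchain and Mmp3. Of the 14808 genes, 3392 (22.9%) passed an edgeR FDR of 0.05, with 1388 (9.37%) higher and 2004 (13.5%) lower in KO. Most changes were small, with a median absolute log2 fold change of 0.26 among the calls, and 162 genes differed at least 2-fold, 83 higher and 79 lower. KO and WT libraries did not overlap for 36.5% of all tested genes, with KO higher for 16.1% and lower for 20.4%, the background for each statement on overlap. The number of calls was 2329 without KO replicate 2 and 2189 without WT replicate 2.

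How many genes counted as higher or lower depended on the scaling. With TMM, the default, 40.9% of calls were higher in KO. The share was 33.8% with DESeq2's median-ratio size factors, 48.8% with upper-quartile factors, 49.9% with TMM computed within the 6 libraries and 39.3% with TMM on genes not associated with Jurkat cells. With total counts it was 74.8%, from 3000 higher (20.3% of tested genes) and 1013 lower calls (6.84%), 27.1% in all. With the median ratio 24.4% were called, 8.24% higher and 16.1% lower. The median log2 fold change over all tested genes moved from -0.01 with TMM to 0.07 with total counts.

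**Figure D1:**
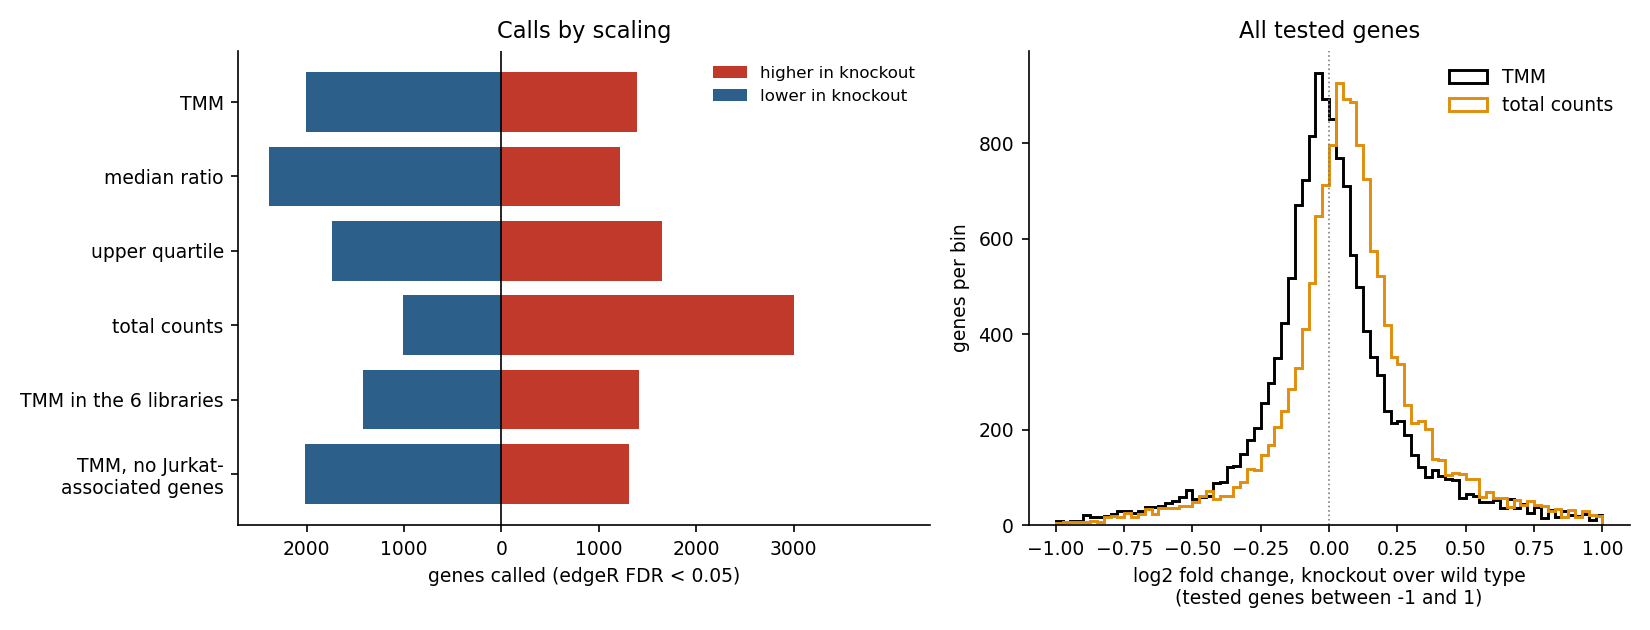
Left, number of genes called higher (red) or lower (blue) in KO at an edgeR FDR under 0.05, for each of 6 scalings. Right, number of tested genes per bin of log2 fold change, KO over WT, with TMM (black) and with total counts (orange). Higher calls outnumber lower calls with total counts, 3000 against 1013, and the whole distribution lies further to the right.

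Among genes called with TMM the shift moved calls across the threshold without reversing a sign. No gene called with TMM had the opposite sign under any of the other 5 scalings, and none was called lower with TMM and higher with total counts. Total counts move the estimates up by about 0.08 log2 units against TMM, while the lower quartile of called sizes was 0.18. Reversals among the calls, or losses of higher calls with total counts, were therefore unlikely from the outset. Signs of genes not called with TMM were not counted. All 1388 higher calls remained with total counts, 1013 of the 2004 lower calls remained, and 1612 genes were newly called higher. The same call and sign under all 6 scalings was found for 1980 genes (13.4%), 1082 higher (7.31%) and 898 lower (6.06%). That held for 529 of the 733 calls with an absolute log2 fold change of 0.5 or more, and for 247 of the 1096 calls under 0.2. Genes associated with Jurkat cells cannot be among them, because one of the fits leaves them out. The fit within the 6 libraries also used its own filter, with 14009 genes tested, and its own estimate of spread. It kept 1172 of the 1388 higher and 1346 of the 2004 lower calls. With the TMM factors of all 30 libraries, a fit of the 6 libraries alone called 2676 genes, against 3392. The count of 1980 is therefore set by that refit as well as by scaling.

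The scalings set different effective library sizes. TMM set the effective size of KO libraries 0.08 log2 units above that of WT for equal totals, the median ratio 0.10 and the upper quartile 0.06. Losses of share in KO were spread over many genes. Of the 25611 genes in the table, 6894 had a lower mean share in KO, a count made without a test. Their losses summed to 4.92 percentage points, of which the 10 largest made 0.681. Rn45s alone took 1.42% of counts in KO, through KO replicate 2, and 0.119% in WT, and such a rise lowers the shares of other genes. Actin beta (Actb) lost most, at 1.26% of counts in KO and 1.44% in WT, followed by the interferon-stimulated Rsad2 at 0.153% and 0.255%. Total counts without Rn45s, Mir6236 and Lars2, 3 entries that can collect reads of ribosomal RNA, gave 80.8% of calls higher in KO, and total counts without KO replicate 2 gave 78.5%.

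Abundant genes of dendritic cells show what changes with the scaling; they were picked after their values were seen. H2-Aa, an MHC class II chain, measured 9923, 9455 and 9647 CPM in KO and 10281, 10386 and 10807 CPM in WT. Its log2 fold change was -0.12 with TMM (edgeR FDR 0.0442) and -0.04 with total counts (edgeR FDR 0.545). Fth1, the ferritin heavy chain, likewise went from -0.13 (edgeR FDR 0.0431) to -0.05 (edgeR FDR 0.461). In the other direction Vim, the intermediate filament vimentin, went from 0.08 with TMM (edgeR FDR 0.141) to 0.16 with total counts (edgeR FDR 0.00148), and Wdfy4, needed for cross-presentation of cell-associated antigen, from 0.07 (edgeR FDR 0.319) to 0.15 (edgeR FDR 0.0220). For such genes a difference this small was called or not according to the scaling.

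Interferon transcripts themselves formed the list furthest below WT. Of 20 type I and III interferon genes, 13 passed the filter on low counts and all 13 were called lower in KO, with a median log2 fold change of -1.77, against -0.01 over all tested genes. Of the 13, 9 reached the filter's level of 0.223 CPM in all 3 KO libraries, while all 13 did so in WT, so the count of 13 is partly set by the filter. With no filter, 19 of the 20 genes had a count in at least 1 of the 30 libraries, and 13 were again called lower and 0 higher. All 13 were still called lower with total counts (median -1.68) and without KO replicate 2, and 11 were without WT replicate 2. In that last fit Ifnab (-1.60, edgeR FDR 0.0502) and Ifnl2 (-1.07, edgeR FDR 0.127) kept negative estimates but were not called. Because alpha interferon genes are near-identical copies, how reads were divided among them is uncertain.

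Ifnb1, the single beta interferon gene (chr4:88522025-88522794, minus strand, mm10), measured 4.17, 3.34 and 3.52 CPM in KO and 9.68, 15.8 and 12.1 CPM in WT. Every WT library was above every KO library. The difference was 3.40-fold, a log2 fold change of -1.77 (SE 0.218, edgeR FDR 3.86e-06), and -1.68 (edgeR FDR 5.25e-06) with total counts. It was -1.57 (edgeR FDR 0.000103) without WT replicate 2, the highest library. Ifna5, an alpha interferon, measured 2.17, 1.59 and 1.72 CPM in KO and 5.09, 9.66 and 6.37 CPM in WT, with a log2 fold change of -1.94 (SE 0.282, edgeR FDR 0.000215). DESeq2 did not call Ifna5 (log2 -1.96, DESeq2 adjusted p 0.866). Ifna2 measured 1.82, 1.43 and 1.93 CPM in KO and 4.67, 7.50 and 5.53 CPM in WT, with -1.77 (SE 0.222, edgeR FDR 1.12e-05). Again no KO library reached the lowest WT library. Ifna6 (-1.73, edgeR FDR 5.98e-05) and Ifna11 (-1.99, edgeR FDR 8.49e-05) were lower by similar amounts.

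Transcripts of the 13 genes that passed the filter were present in both genotypes after 4 h with Jurkat cells and nearly absent elsewhere. The 13 passed the filter through the 4 h Jurkat libraries, so low levels elsewhere were partly set by that choice. Ifnk, which did not pass, held 2, 5 and 0 counts in KO and 2, 1 and 2 in WT at 4 h with Jurkat cells. Summed over the untreated libraries it held 9 counts in KO and 14 in WT. The 13 genes summed to 14.99, 12.1 and 12.8 CPM in KO and 35.4, 62.0 and 41.4 CPM in WT. In the 24 libraries of the other conditions the sum reached at most 0.693 CPM, in 1 KO library at 30 min with Jurkat cells. Untreated cells held 0 counts of Ifnb1 over 3 KO and 3 WT libraries, and cells given OVA for 4 h held 5 counts in KO and 21 in WT. Plasmacytoid dendritic cells are known as strong producers of type I interferon. The 12 markers of this cell type summed to 3357, 3026 and 3417 CPM in KO and 3747, 4411 and 3655 CPM in WT, a ratio of 0.830 without overlap (exact permutation p = 0.10, two-sided, the smallest that 3 against 3 allow). Their part in the interferon result was not tested. In bulk RNA, fewer cells of a type and less RNA per cell cannot be told apart.

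**Figure D2:**
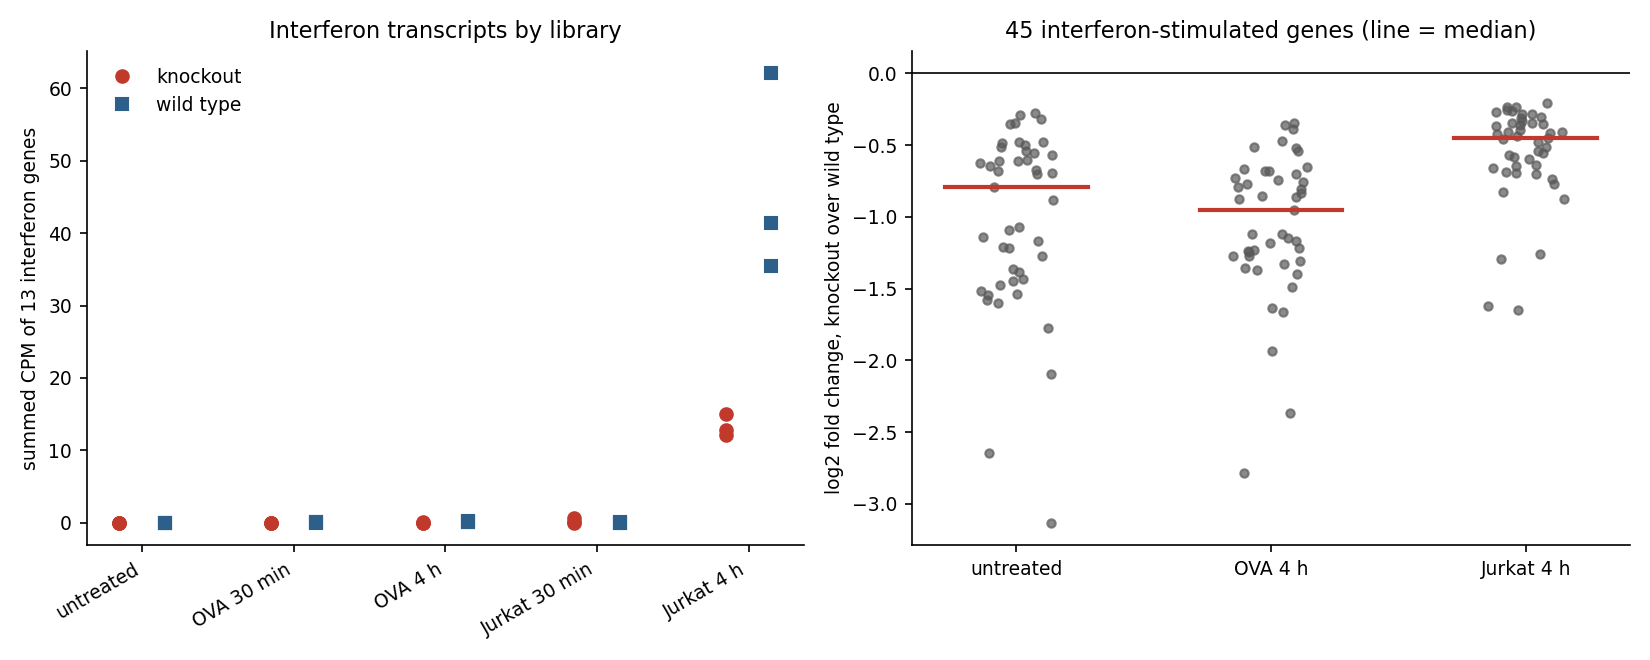
Left, summed CPM (TMM-scaled, linear axis) of the 13 interferon genes in each of the 30 libraries, KO red and WT blue. Right, log2 fold change of KO over WT for 45 interferon-stimulated genes in untreated cells and after 4 h with OVA or Jurkat cells; each point is a gene and the line is the median. The summed interferon transcripts, of genes that passed the filter through the 4 h Jurkat libraries, stand above 12 CPM in those libraries alone. All 45 interferon-stimulated genes lie below 0 in each of the 3 conditions.

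Windows around the start sites of genes that carry this difference are printed to show the letters that interferon regulatory factors are known to bind. They run from 250 bases before to 50 after the start (RefSeq, GRCm38.p6, 5′ to 3′ along the gene's strand). Capitals mark the core AANNGAAA on either strand; overlapping matches run together. The core was found in 15 of 19 windows of interferon genes (78.9%) and 33 of 41 windows of interferon-stimulated genes (80.5%), against 23.9% of all 32851 windows. The longer interferon response pair, GAAA repeated after a gap of 2 bases of any kind, contains the core and was found in 57.9%, 53.7% and 3.44%. A match is a description and not a site shown to be bound.
Ifnb1, chr4:88522745-88523044, minus strand: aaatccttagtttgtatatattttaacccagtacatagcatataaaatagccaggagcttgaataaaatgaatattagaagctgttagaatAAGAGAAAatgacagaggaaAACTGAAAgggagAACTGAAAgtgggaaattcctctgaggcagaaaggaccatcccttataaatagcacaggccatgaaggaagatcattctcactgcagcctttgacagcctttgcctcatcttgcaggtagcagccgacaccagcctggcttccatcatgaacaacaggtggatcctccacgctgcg
Ifna2, chr4:88683730-88684029, minus strand: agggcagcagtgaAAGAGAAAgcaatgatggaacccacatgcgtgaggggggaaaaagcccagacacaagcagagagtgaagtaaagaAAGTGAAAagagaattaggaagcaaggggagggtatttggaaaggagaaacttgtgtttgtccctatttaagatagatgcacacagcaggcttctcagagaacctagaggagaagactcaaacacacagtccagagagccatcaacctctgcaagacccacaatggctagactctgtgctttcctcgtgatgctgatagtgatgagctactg
Ifna5, chr4:88835275-88835574, plus strand: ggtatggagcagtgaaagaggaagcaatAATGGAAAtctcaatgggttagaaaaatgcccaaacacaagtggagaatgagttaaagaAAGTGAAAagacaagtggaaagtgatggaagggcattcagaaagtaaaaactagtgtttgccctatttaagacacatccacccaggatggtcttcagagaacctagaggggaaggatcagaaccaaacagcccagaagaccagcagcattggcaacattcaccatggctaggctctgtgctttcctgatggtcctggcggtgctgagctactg
Oas1g, chr5:120887564-120887863, minus strand: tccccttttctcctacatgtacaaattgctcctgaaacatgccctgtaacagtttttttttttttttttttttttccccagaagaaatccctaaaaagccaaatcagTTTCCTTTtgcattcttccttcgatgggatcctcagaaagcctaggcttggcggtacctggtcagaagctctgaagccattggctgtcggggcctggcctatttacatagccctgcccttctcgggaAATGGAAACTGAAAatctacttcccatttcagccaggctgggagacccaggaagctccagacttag
The windows of Ifnb1 and Oas1g held 3 matches each, and those of Ifna2 and Ifna5 held 2 each.

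Interferon-stimulated genes were lower in KO as a group. Of 45 tested, 33 were called lower and 0 higher, with a median log2 fold change of -0.45. With total counts 26 were called lower and the median was -0.37. Without KO replicate 2 there were 22 calls, and without WT replicate 2 there were 23.

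Ifi44, an interferon-inducible gene (chr3:151730923-151749959), measured 115.5, 110.4 and 123.7 CPM in KO and 325, 398 and 354 CPM in WT. That is 3.08-fold less in KO (log2 -1.62, SE 0.156, edgeR FDR 3.59e-08). Ifi208, of the p200 family of nucleic acid sensors and regulators (chr1:173673680-173698392), measured 28.02, 22.9 and 26.0 CPM in KO and 71.1, 96.2 and 74.0 CPM in WT (log2 -1.65, SE 0.132, edgeR FDR 1.07e-09). The groups were well separated for both genes. Oas1g, a 2′-5′ oligoadenylate synthetase of the antiviral response (chr5:120876142-120887613), measured 34.6, 33.1 and 34.2 CPM in KO and 76.9, 85.5 and 87.3 CPM in WT (log2 -1.29, SE 0.103, edgeR FDR 1.07e-09). Ifi27l2a, another interferon-inducible gene (chr12:103433873-103443680), measured 176, 165 and 170 CPM in KO and 360, 444 and 420 CPM in WT (log2 -1.26, SE 0.0925, edgeR FDR 1.90e-10). For each of these genes the KO libraries varied less than the WT libraries. Ifi208 and Oas1g belong to families of similar genes, so their counts may include or miss reads of relatives.

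Several classical members did not pass; those named next were picked after their values were seen. Rsad2 (log2 -0.83), Oasl1 (-0.70), Ifit2 (-0.57), Isg15 (-0.41) and Cxcl10, a chemokine counted in another list (-0.36), had estimates below 0 with an edgeR FDR over 0.05, although the KO libraries lay below the WT libraries for each. All 45 estimates were below 0.

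The KO to WT difference of these genes was also present without Jurkat cells. In untreated cells 41 of the 45 were called lower, with a median of -0.80, and at 4 h with OVA all 45 were, with a median of -0.95. In those comparisons 9.97% and 12.6% of all tested genes were called, 6.00% and 6.22% higher, and 3.97% and 6.35% of all tested genes were called lower. The comparisons share no library with the one at 4 h with Jurkat cells. A test of the difference between conditions called 8 of the 45 genes against untreated and 7 against OVA, all with the KO deficit smaller at 4 h with Jurkat cells; over all genes that test called 4.26% against untreated (1.72% higher and 2.55% lower) and 2.53% against OVA (1.31% higher and 1.22% lower). With total counts the balance was different: 661 of 861 differences from untreated were higher, against 254 of 631 with TMM, and 353 of 458 differences from OVA, against 194 of 375. Ifi44, for example, had a log2 fold change of -3.13 untreated, -2.78 with OVA and -1.62 with Jurkat cells.

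Of 31 genes tested that induce interferon or carry its signal, 15 were called lower and 0 higher (median -0.16), 7 without KO replicate 2 and 7 without WT replicate 2. With total counts 11 were called lower and 2 higher. Ifnar2, a chain of the type I interferon receptor, measured 248, 232 and 250 CPM in KO and 292, 309 and 282 CPM in WT (log2 -0.28, SE 0.0357, edgeR FDR 3.08e-06). Tbk1, the kinase that activates interferon regulatory factor 3 (-0.20), Irf5, a transcription factor of the family (-0.20), and Traf6, an adaptor ligase of Toll-like receptor signalling (-0.22), were also called lower under all 6 scalings.

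MHC class I genes and the machinery that loads them were lower in KO. Of 24 tested, 19 were called lower and 0 higher (median -0.24), and 16 were lower with total counts, where 1 was higher. H2-K1, a classical heavy chain, measured 2405, 2292 and 2424 CPM in KO and 2810, 2926 and 2961 CPM in WT (log2 -0.29, SE 0.0369, edgeR FDR 2.79e-06). H2-D1, the other classical chain, had -0.32 (edgeR FDR 1.89e-06), the peptide transporter genes Tap1 and Tap2 had -0.23 each, and the light chain B2m had -0.30. Tap1, Tap2 and B2m were picked after their values were seen. The libraries of H2-K1 did not overlap between genotypes. Proteasome subunits had 19 of 38 called lower and 0 higher with TMM, but 5 lower and 1 higher with total counts, and 11 lower without KO replicate 2. The immunoproteasome subunits Psmb9 (-0.24) and Psmb10 (-0.28), which are counted in both lists, were lower with both scalings.

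MHC class II calls were mostly higher with TMM, while the calls among maturation and co-stimulation genes were all lower. Of 13 class II genes, 4 were higher and 1, H2-Aa, was lower. These became 4 and 0 with total counts, 4 and 0 without KO replicate 2, and 3 and 0 without WT replicate 2. Of 22 maturation and co-stimulation genes, 5 were lower and 0 higher. The lower calls became 1 with total counts, 2 without KO replicate 2 and 3 without WT replicate 2. H2-Eb2, a class II beta chain gene, measured 125, 148 and 138 CPM in KO and 105, 102 and 105 CPM in WT (log2 0.39, SE 0.0894, edgeR FDR 0.00181). The co-stimulatory ligand Cd86 had -0.23 (edgeR FDR 0.0112) with TMM and -0.15 (edgeR FDR 0.0752) with total counts, and was not called without KO replicate 2 (-0.20, edgeR FDR 0.0690) or without WT replicate 2 (-0.17, edgeR FDR 0.103).

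Secreted mediators split. Of 40 cytokine and chemokine genes, 6 were called higher and 10 lower, which became 3 and 9 without KO replicate 2, 5 and 7 without WT replicate 2, and 10 and 8 with total counts. Cxcl1, a neutrophil attractant (chr5:90891245-90893115), measured 102, 112 and 102 CPM in KO and 63.4, 54.9 and 61.6 CPM in WT (log2 0.81, SE 0.0936, edgeR FDR 7.52e-07). Its relative Cxcl3 (0.82), Ccl17, which attracts CCR4-bearing T cells (0.84), Ccl6 (0.68) and Il1b, encoding interleukin 1 beta (0.44), also rose. Without KO replicate 2, Cxcl3 (0.74, edgeR FDR 0.0529) and Il1b (0.44, edgeR FDR 0.0519) were no longer called. Il15, encoding a growth factor of natural killer and memory T cells, measured 59.4, 54.2 and 59.2 CPM in KO and 89.4, 118 and 97.6 CPM in WT (log2 -0.82, SE 0.0910, edgeR FDR 3.84e-07). The death ligand Tnfsf10 (-0.80), Il27 (-0.71), the chemokines Ccl4 (-0.70) and Ccl5 (-0.37), and Il10 (-0.66) were lower as well. Il10 is among the Jurkat-associated genes defined further on. Cxcl3, Ccl17, Il1b, Il27, Ccl4, Ccl5 and Il10 were picked after their values were seen. For Cxcl1 the lowest KO library was above the highest WT library, and for Il15 the order was the reverse.

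The window at the Cxcl1 start site is shown because NF-kB is known to act there. Capitals mark GGGA and CC with a gap of 4 bases of any kind between them, on either strand, found in 46.9% of 32 windows of the cytokine list and in 20.7% of all windows; overlapping matches run together.
Cxcl1, chr5:90890995-90891294, plus strand: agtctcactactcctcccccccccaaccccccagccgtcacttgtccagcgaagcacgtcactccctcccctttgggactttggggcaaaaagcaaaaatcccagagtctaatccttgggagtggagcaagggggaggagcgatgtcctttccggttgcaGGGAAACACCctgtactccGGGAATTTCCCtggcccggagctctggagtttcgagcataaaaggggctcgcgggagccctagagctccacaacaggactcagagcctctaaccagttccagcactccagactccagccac
It held 3 matches. The Ifnb1 window held 2 matches to the same letters, beside the core printed in capitals above. NF-kB subunits and inhibitors themselves had 4 of 15 genes called lower and 0 higher with TMM, and 1 lower and 2 higher with total counts. The 4 lower calls became 1 without KO replicate 2 and 1 without WT replicate 2.

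Xcl1, the chemokine that attracts XCR1-bearing conventional dendritic cells (chr1:164931648-164935510), was among the 8 largest falls. It measured 3.51, 3.79 and 2.43 CPM in KO and 7.84, 11.3 and 9.19 CPM in WT (log2 -1.54, SE 0.172, edgeR FDR 3.98e-07). The groups did not overlap. Its estimates were -0.09 in untreated cells and -0.19 with OVA.

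Heat shock genes formed another group that was lower in KO. Of 14 tested, 9 were called lower and 1 higher (median -0.26), 9 were lower without KO replicate 2 and 9 without WT replicate 2. With total counts 8 were lower and 3 higher. Hspa1a, an inducible chaperone of the HSP70 family, measured 34.95, 32.15 and 33.8 CPM in KO and 50.03, 82.6 and 54.0 CPM in WT (log2 -0.89, SE 0.124, edgeR FDR 9.60e-06). It was -0.63 (edgeR FDR 0.000171) without WT replicate 2, the highest library. Its near-identical neighbour Hspa1b had -0.88, and reads could be divided between the pair. Hsph1, an HSP110 chaperone, measured 97.3, 98.3 and 97.3 CPM in KO and 128, 153 and 122 CPM in WT (log2 -0.46, SE 0.0546, edgeR FDR 1.03e-06). KO libraries were below WT libraries for each of these. The 1 call above 0 with TMM was Hspb1, a small heat shock protein, at 0.61. It was lost without KO replicate 2 (0.51, edgeR FDR 0.155) and without WT replicate 2 (0.50, edgeR FDR 0.163). Against untreated cells, the change in the KO to WT difference was called for 5 heat shock genes, all lower, and against OVA for 3, all lower.

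Genes of engulfment and of the LC3 pathway were called in both directions. Of all tested genes, 9.37% were called higher and 13.5% lower with TMM, and 20.3% and 6.84% with total counts. Of 27 receptors and bridging molecules for apoptotic cells, 3 were called higher (11.1%) and 5 lower (18.5%), shares near that background. There were 7 higher and 3 lower with total counts, 2 higher without KO replicate 2 and 3 lower without WT replicate 2. Clec9a, the receptor of conventional dendritic cells for exposed actin of dead cells, measured 154, 134 and 150 CPM in KO and 204, 224 and 198 CPM in WT (log2 -0.52, SE 0.0527, edgeR FDR 9.34e-08). The receptor kinases Mertk (-0.66, edgeR FDR 0.000316) and Axl (-0.47, edgeR FDR 0.000353) fell too. Mfge8, a bridge between phosphatidylserine and integrins, measured 138, 124 and 119 CPM in KO and 81.6, 79.6 and 76.4 CPM in WT (log2 0.68, SE 0.0945, edgeR FDR 8.36e-06). Neither Clec9a nor Mfge8 had overlapping groups. Of 38 genes of the class III kinase complexes and LC3 conjugation, 9 were higher (23.7%) and 6 lower (15.8%) with TMM. With total counts 15 were higher and 0 lower. The TMM counts became 7 and 3 without KO replicate 2, and 5 and 2 without WT replicate 2. Wipi1, a phosphoinositide effector (0.44), and Atg16l2 (0.29) rose. Atg5, which LC3 conjugation needs, had 0.05 and was not called with TMM (edgeR FDR 0.533) or with total counts (edgeR FDR 0.0580). Wipi1 and Atg5 were picked after their values were seen. The subunits of NADPH oxidase 2, which supplies the oxidants of LC3-associated phagocytosis, had 3 of 7 called lower and 0 higher, including Ncf1 (-0.25) and Cybb (-0.25). With total counts 2 subunits were lower and 1 higher. Cybb was not called without WT replicate 2 (-0.17, edgeR FDR 0.0870), where 1 of the 3 subunit calls was made.

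**Figure D3:**
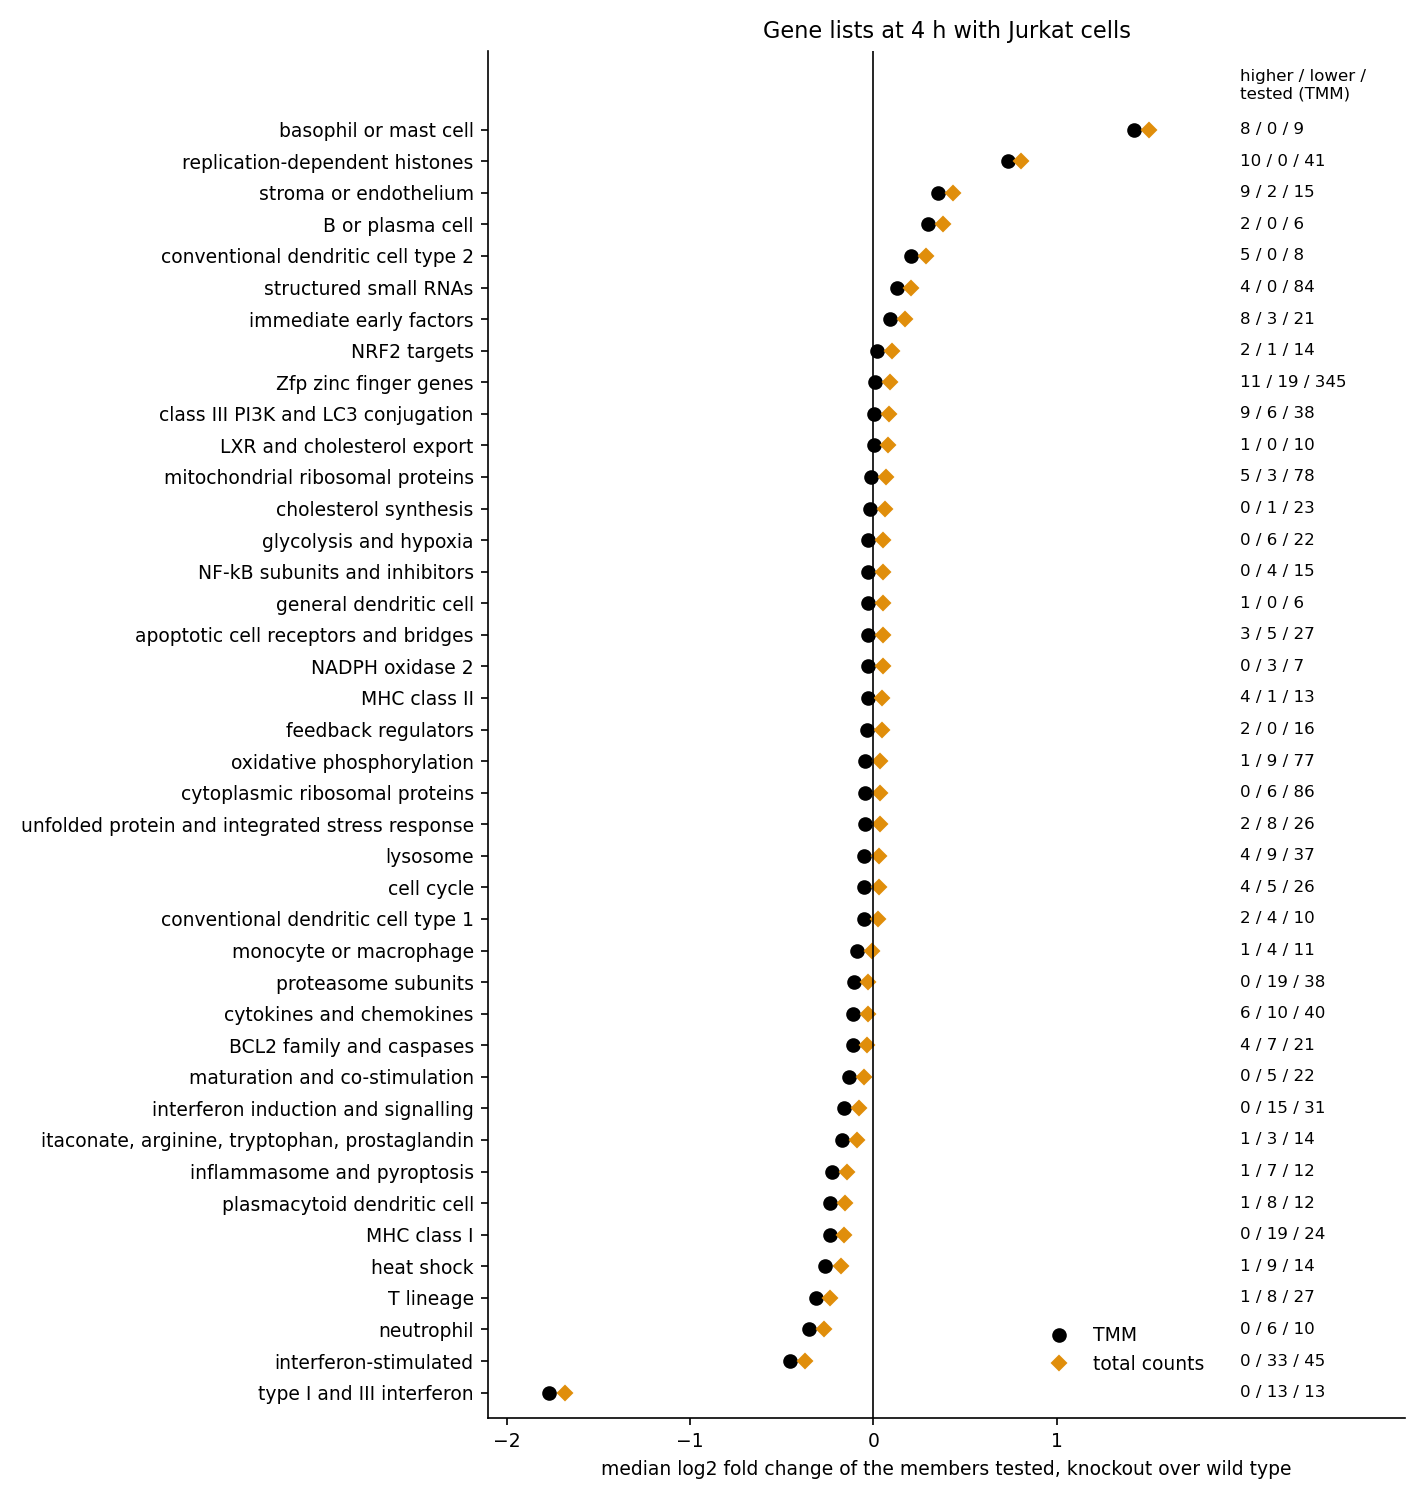
Median log2 fold change, KO over WT, of the tested members of each gene list, with TMM (black circles) and total counts (orange diamonds); the columns on the right give members called higher, called lower and tested with TMM. The interferon list stands furthest to the left, at -1.77, and the basophil or mast cell list furthest to the right, at 1.43; total counts move every list to the right, and lists with a median near 0 cross it.

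Inflammasome and pyroptosis genes had 7 of 12 lower and 1 higher, among them Casp1, the caspase that matures interleukin 1 (-0.43, edgeR FDR 5.36e-07). Unfolded protein response genes had 8 of 26 lower and 2 higher with TMM, and 4 lower and 6 higher with total counts. Lysosome genes had 9 of 37 lower and 4 higher, then 4 lower and 6 higher, and with TMM 5 lower without WT replicate 2. Cytoplasmic ribosomal proteins had 6 of 86 lower and 0 higher, and oxidative phosphorylation 9 of 77 lower and 1 higher, shares below the 13.5% of all tested genes. With total counts these lists had 3 lower and 6 higher, and 0 lower and 7 higher. With TMM and without KO replicate 2 the lower calls became 3 and 2. Cholesterol synthesis genes had 1 of 23 lower and 0 higher at 4 h with Jurkat cells, and 0 lower and 4 higher with total counts. In untreated cells 17 of the 23 were higher in KO, and the test of the difference between the conditions called 9 of them, all lower.

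Basophil and mast cell markers were the group furthest above WT, with 8 of 9 tested called higher, 0 lower and a median of 1.43. The count was also 8 with KO replicate 2 left out, with WT replicate 2 left out, and with total counts. Mcpt8, a basophil protease (chr14:56082164-56085197), measured 17.7, 22.2 and 25.6 CPM in KO and 4.17, 3.11 and 4.84 CPM in WT, which is 5.40-fold more in KO (log2 2.43, SE 0.179, edgeR FDR 1.90e-10). Cpa3, carboxypeptidase A3 of mast cells and basophils, measured 9.07, 13.3 and 15.3 CPM in KO and 3.23, 3.71 and 5.08 CPM in WT (log2 1.66, SE 0.219, edgeR FDR 4.56e-06). No KO library overlapped the WT range for either gene. Prss34 (1.43), another protease, Gata2, a transcription factor of these lineages (1.59), and Fcer1a, the alpha chain of the IgE receptor (2.80), rose as well, and Hdc, the histamine-forming enzyme, had -0.32 and did not pass (edgeR FDR 0.0547). The 9 markers summed to 257 to 286 CPM in KO and 182 to 190 CPM in WT. Tpsb2, a mast cell tryptase, was at 0 counts in all 6 libraries. In untreated cells 8 of the 9 were already called higher, with a median of 1.37.

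Further rises among the 8 largest were Jchain and Mmp3. Jchain, encoding the joining chain of polymeric antibodies, measured 12.2, 11.8 and 13.2 CPM in KO and 3.83, 3.83 and 4.45 CPM in WT (log2 1.62, SE 0.138, edgeR FDR 2.91e-09). Mmp3, the matrix protease stromelysin 1, measured 5.004, 6.14 and 6.31 CPM in KO and 2.18, 1.67 and 1.89 CPM in WT (log2 1.60, SE 0.171, edgeR FDR 1.98e-07). The lowest KO library was above the highest WT library for both. B and plasma cell markers had 2 of 6 higher and 0 lower (3 higher without KO replicate 2, 1 without WT replicate 2 and 4 with total counts). Stromal or endothelial markers had 9 of 15 higher and 2 lower (6 and 2 without KO replicate 2, 4 and 1 without WT replicate 2). The stromal or endothelial sums of 2363 to 2693 CPM in KO and 2419 to 2559 CPM in WT overlapped. The part of B, plasma, stromal or endothelial cells in these results was not tested.

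The other 4 of the 8 largest rises by the naming rule rested on KO replicate 2. Rn45s measured 2407, 46552 and 1848 CPM in KO and 1346, 1444 and 1701 CPM in WT. Rmrp, the RNA of the MRP ribonuclease, measured 1.31, 32.2 and 0.809 CPM in KO and 0.289, 0.209 and 0.330 CPM in WT. Replicate 2 was by far the highest library for both, and the other KO libraries also lay above WT. The log2 fold change of Rn45s went from 3.50 (edgeR FDR 0.000322) to 0.51 (edgeR FDR 0.184) without it, and that of Rmrp from 5.36 to 1.92 (edgeR FDR 0.00200). Rpph1, the RNA of ribonuclease P, went from 3.80 to 1.06 (edgeR FDR 0.0310) and Mir6236 from 3.05 to 0.59 (edgeR FDR 0.125). Replication-dependent histone genes went from 10 of 41 called higher, with a median of 0.73, to 3 called and a median of -0.04.

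**Figure D4:**
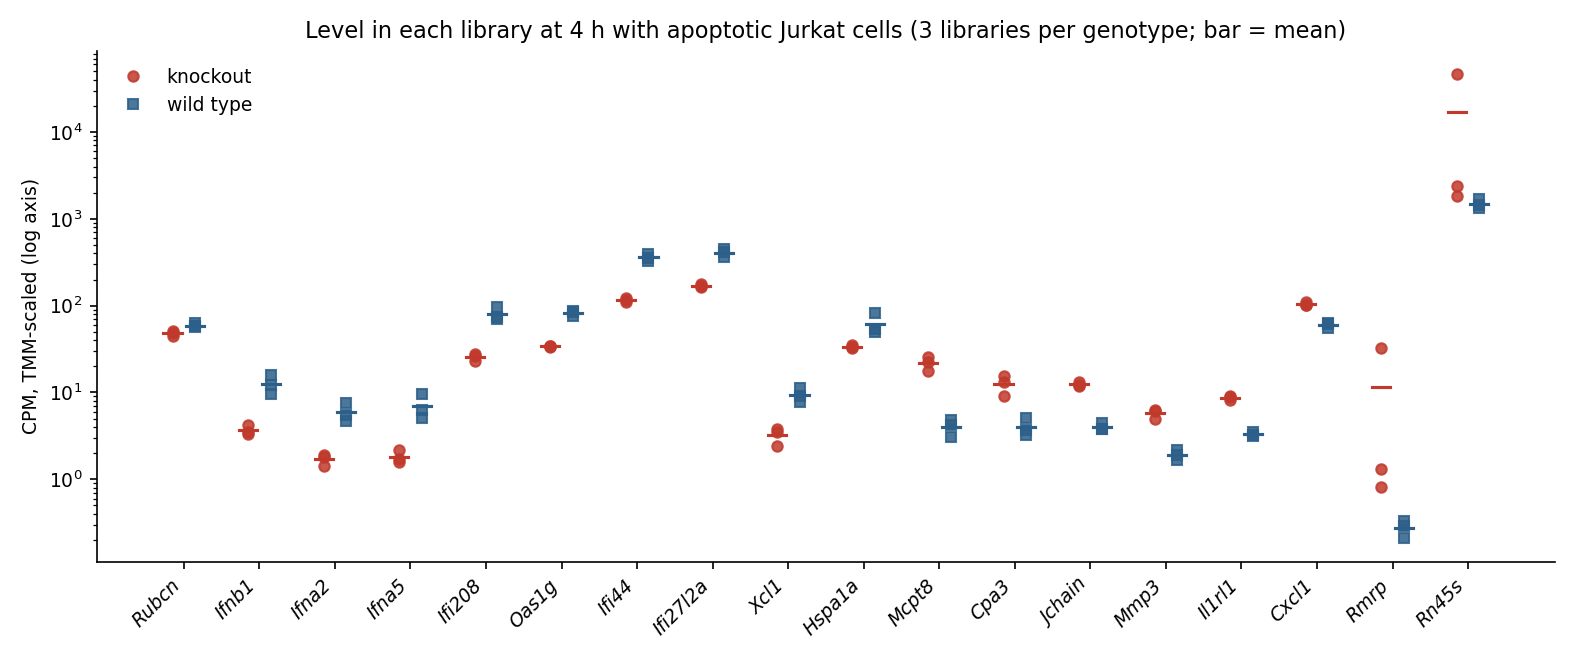
Level of 18 genes in each of the 6 libraries, in CPM on TMM-scaled library sizes (log axis), KO as red circles and WT as blue squares, with a bar at the mean. Interferon and interferon-stimulated genes and Xcl1 lie lower in KO, basophil genes, Jchain, Mmp3, Il1rl1 and Cxcl1 lie higher, and 1 KO library sets the means of Rmrp and Rn45s.

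Markers of the dendritic cell types were examined for the cells present. Type 2 conventional dendritic cells had 5 of 8 markers higher and 0 lower, and 4 higher without KO replicate 2 or without WT replicate 2. These markers summed to 1093, 1028 and 1037 CPM in KO and 896, 934 and 873 CPM in WT (ratio 1.17, exact permutation p = 0.10). Mgl2, a lectin of that type, had 0.95 (edgeR FDR 8.99e-05) and Itgam 0.35 (edgeR FDR 5.44e-05). Plasmacytoid markers had 8 of 12 lower and 1 higher (5 lower with KO replicate 2 left out, and 5 with WT replicate 2 left out), among them Spib, a transcription factor of that lineage (-0.43), and Siglech (-0.32). Type 1 markers had 2 of 10 higher and 4 lower (1 lower with either of those libraries left out), with overlapping sums. With total counts the type 1 balance turned, to 3 higher and 1 lower. Plasmacytoid markers then had 1 higher and 6 lower, and type 2 markers 5 higher and 0 lower. Ly6c2, a surface marker of inflammatory monocytes that interferon can also raise, measured 81.2, 67.7 and 79.9 CPM in KO and 170, 208 and 168 CPM in WT (log2 -1.25, SE 0.0797, edgeR FDR 3.17e-11). Neutrophil markers had 6 of 10 lower and 0 higher (4 lower without KO replicate 2 and 5 without WT replicate 2). They summed to 116 to 121 CPM in KO and 149 to 156 CPM in WT. No marker on the conventional or plasmacytoid dendritic cell lists was at 0 counts in all 6 libraries together.

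T-lineage transcripts were compared because the engulfed cells are T cells. The 14 T-lineage genes under 1 CPM in untreated cells, Cd3e, Lef1 and Bcl11b among them, summed to 67.0, 85.6 and 72.6 CPM in KO and 120, 90.3 and 118 CPM in WT. KO lay below WT without overlap (75.1 ± 9.56 against 110 ± 16.7 CPM, SD, n = 3 each, ratio 0.685, two-sided exact permutation p = 0.10, the smallest possible). With total counts the libraries overlapped and the ratio was 0.722 (exact permutation p = 0.20). Over all 27 T-lineage markers tested, of which 8 were called lower and 1 higher, the ratio was 0.862, with overlap. With total counts 5 of these markers were called lower and 2 higher. Jurkat-associated genes, defined in WT at 30 min by a level at least 2-fold above that of the OVA group (edgeR FDR under 0.05), had a median log2 fold change of -0.54 over 396 genes, with summed levels of 2185 to 2416 CPM in KO and 2714 to 2872 CPM in WT. They made 6.04% of the lower and 0.288% of the higher calls, and 2.67% of the genes tested. The amount of Jurkat RNA and its part in the other results was not tested.

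Across all tested genes, those called at 4 h with Jurkat cells overlapped with the calls in other conditions. Of the 3392, 822 were also called in untreated cells (24.2% of the calls here and 55.7% of the calls there), 788 with the same sign. With OVA for 4 h, 1048 were shared (30.9% and 56.3%), 1011 with the same sign. In neither of those nor at 30 min were 1811 called, 651 higher and 1160 lower, which counts thresholds passed and not tested differences. The tests of the difference itself called 631 genes (4.26%) against untreated and 375 genes (2.53%) against OVA.

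The 4 smallest p-values for a difference from untreated cells are described first. Il1rl1, the receptor of interleukin 33 (chr1:40429570-40465414), measured 8.86, 9.14 and 8.24 CPM in KO and 3.20, 3.50 and 3.18 CPM in WT with Jurkat cells (log2 1.41, SE 0.0973, edgeR FDR 8.19e-11), and 21.0 ± 2.04 against 20.1 ± 0.620 CPM (SD, n = 3) untreated. The level was lower than in untreated cells in both genotypes. With OVA it was 16.8 ± 0.327 CPM in KO and 12.3 ± 1.24 CPM in WT. Strip2 was 0.30 with Jurkat cells and -0.42 untreated, Lbh 0.38 and -0.07, and H2-Q5, a nonclassical class I gene, -0.29 and -1.15. The 4 smallest p-values for a difference from OVA belonged to other genes. The immediate early genes Fosb and Egr1 were 0.40 and 0.36 with Jurkat cells and -1.29 and -0.86 with OVA, H2-Eb2 was 0.39 and -0.76, and Mid1, a ubiquitin ligase on chromosome X, was 0.98 and 1.85. Fosb and Egr1 are among the Jurkat-associated genes. Without WT replicate 2, Fosb was not called at 4 h with Jurkat cells (0.33, edgeR FDR 0.0537), and without KO replicate 3, Egr1 was not (0.28, edgeR FDR 0.0535).

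**Figure D5:**
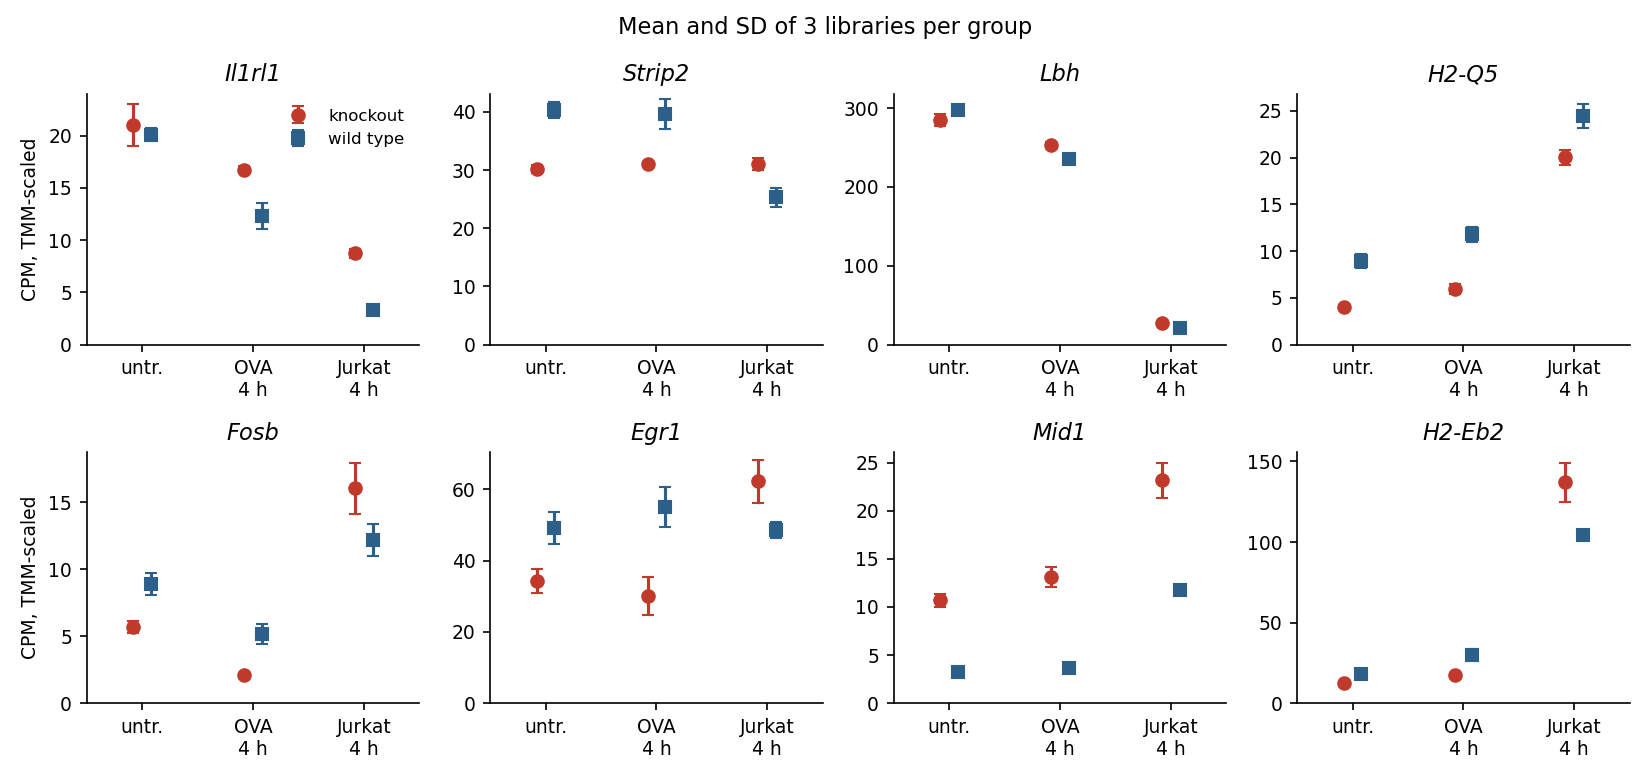
Mean CPM (TMM-scaled, linear axis from 0) with SD of 3 libraries per group for 8 genes in untreated cells and after 4 h with OVA or Jurkat cells, KO as red circles and WT as blue squares. Strip2, Fosb, Egr1 and H2-Eb2 are lower in KO than in WT untreated and with OVA, and higher in KO with Jurkat cells.

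Within 10 Mb of Rubcn, 26 of 117 tested genes were called (22.2%), near the 22.9% of all tested genes.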

How the data were processed

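RNA was measured in 30 libraries of FLT3L-derived mouse dendritic cells, whose sequencing libraries were made with Illumina's TruSeq RNA kit (v2), per the labels' protocols. What the authors deposited is 1 count table, whole read counts for every gene, beside symbols, Entrez identifiers and mm10 intervals, per the file headers. STAR 2.5, Subread, featureCounts 1.5.0-p1 and DESeq2 are named in the submitters' processing notes. How reads of human Jurkat cells, of near-identical genes, or by strand were counted is not given in the sources used here.

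Groups and replicate numbers came from the sample titles. Genotypes were compared by quasi-likelihood F tests in edgeR 4.0.16 (R 4.3.3), two-sided, with a mean per group over all 30 libraries, TMM factors and filterByExpr by group. Genes tested held 99.99% of counts. A gene was called at an FDR under 0.05, the p-value after Benjamini-Hochberg adjustment across the 14808 genes. SE was taken from the log2 fold change and the square root of F. The common biological coefficient of variation was 0.0515. Differences between conditions were contrasts of the same model. Scalings, filters, DESeq2 1.42.0, fits of the compared groups alone, the replicate number as a block, and leaving out libraries were alternatives. Some were added after the data were seen: lists under other settings, and total counts without ribosomal entries or without KO replicate 2. The procedure was tested on simulated data.

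Members, gene lists and motifs were chosen with earlier results of these data known. Named genes are Rubcn, the 8 largest rises and falls (called, 5 CPM or more on the higher side, no overlap, same call under 6 scalings, placeholder names passed over), up to 4 members of each list by smallest p, further members with their values, and the 4 smallest p of each difference. Genes called lower with TMM and higher with total counts were to be named, and there were 0. Others are said to be chosen after their values were seen. Some genes stand in more than 1 list. The mitochondrial genome list matched 0 rows. Promoter windows are from RefSeq's table for GRCm38.p6.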

Additional observations from a re-analysis of the deposited data

Results flagged for a closer look

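The KO to WT difference itself differed between conditions for 631 genes when 4 h with Jurkat cells was set against untreated cells, and for 375 genes against 4 h with OVA, by edgeR tests of the difference at an FDR under 0.05. Against untreated cells the log2 difference was 1.34 for Il1rl1 (edgeR FDR 7.97e-08), 0.71 for Strip2 (edgeR FDR 5.69e-06), 0.45 for Lbh (edgeR FDR 1.59e-05) and 0.86 for H2-Q5 (edgeR FDR 1.59e-05). For Il1rl1, Strip2 and Lbh the estimate was more positive with Jurkat cells, and for H2-Q5 the KO deficit was smaller. Against OVA the log2 difference was 1.69 for Fosb (edgeR FDR 3.12e-06), 1.22 for Egr1 (edgeR FDR 5.00e-06), 1.16 for H2-Eb2 (edgeR FDR 1.22e-05) and -0.86 for Mid1 (edgeR FDR 9.04e-06). With Jurkat cells KO was above WT for the first 3 of these, and the KO excess of Mid1 was smaller than with OVA.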

How the results depend on the processing

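Of the 160 genes chosen by the naming rule, none changed direction under the 16 alternatives, and 101 kept their call in all of them. Apart from Rubcn, these genes were picked for large changes or small p-values in the main model. Reversals among them were therefore unlikely from the outset. The largest rises and falls also had to keep the same call under all 6 scalings, so the alternative scalings could not change them. The calls at 4 h with Jurkat cells, 3392, ranged from 2189 to 3102 with 1 library left out. The fit of the compared groups with the replicate block gave 1750. Deviations from the group mean in same-numbered KO and WT libraries had correlations of -0.002, -0.118 and -0.0322. With 3 libraries a group these cannot show whether the numbers pair samples, and the titles give only the numbers. The share of calls higher in KO, 40.9%, was 33.8% with median-ratio factors, 48.8% with the upper quartile, 74.8% with total counts, 49.9% with TMM within the 6 libraries, 44.2% with no filter, 43.2% with at least 5 CPM in 3 libraries, 46.0% with the replicate block and 33.6% with DESeq2. It was 37.1 to 42.2% with 1 library left out, and with total counts 80.8% without ribosomal entries and 78.5% without KO replicate 2. Differences from untreated numbered 631, of which 254 were higher, 861 with total counts, of which 661 were higher, 808 with DESeq2, 278 in the compared groups alone, 199 with the replicate block and 362 to 637 with 1 library left out. Differences from OVA numbered 375, of which 194 were higher, 458 with total counts, of which 353 were higher, 514 with DESeq2, and 198 to 358 with 1 library left out. The T-lineage ratio, 0.685, was 0.862 over all markers and 0.630 to 0.722 with 1 library left out. Causes of these changes were not tested. With 3 libraries a group, each exact test has a smallest p of 0.10, and Ifnb1 rests on 126 to 529 counts per library.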

Other observations

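Calls in lists not described above are given next. Of all tested genes, 9.37% were called higher and 13.5% lower with TMM, and 20.3% and 6.84% with total counts. Immediate early factors, transcription factors induced within minutes of a stimulus, had 8 of 21 called higher (38.1%) and 3 lower (14.3%). Among the 21, 5 were Jurkat-associated. LXR targets and cholesterol exporters had 1 of 10 higher and 0 lower. NRF2 targets had 2 of 14 higher and 1 lower, glycolysis and hypoxia genes 0 of 22 higher and 6 lower, and feedback regulators of inflammatory signalling 2 of 16 higher and 0 lower. BCL2 family and caspase genes had 4 of 21 higher and 7 lower, and cell cycle genes 4 of 26 higher and 5 lower. In 3 lists both shares were below those of all tested genes. Mitochondrial ribosomal proteins had 5 of 78 higher (6.41%) and 3 lower (3.85%). Zfp zinc finger genes had 11 of 345 higher (3.19%) and 19 lower (5.51%), and structured small RNAs 4 of 84 higher (4.76%) and 0 lower. With total counts several of these counts turned: the Zfp genes had 50 higher and 6 lower, BCL2 family and caspase genes 6 and 1, cell cycle genes 9 and 2, glycolysis and hypoxia genes 4 and 3, and mitochondrial ribosomal proteins 12 and 0. Total counts also gave 3 higher and 0 lower for LXR targets and exporters, 4 and 1 for NRF2 targets, and 3 and 4 for monocyte or macrophage markers. General dendritic cell markers had 1 of 6 higher, monocyte or macrophage markers 1 of 11 higher and 4 lower, and natural killer cell markers 0 of 3 called. Without WT replicate 2 the BCL2 family and caspase calls became 1 higher and 2 lower, the mitochondrial ribosomal calls 0 and 2, the Zfp calls 6 and 8, the immediate early calls 4 and 3, and the cell cycle calls 1 and 6. Without KO replicate 2 the small RNA calls became 2, and with either library left out glycolysis and hypoxia had 4 lower, NRF2 targets 1 higher and feedback regulators 1 higher.

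Among 14 genes of itaconate, arginine, tryptophan and prostaglandin metabolism, 1 was higher and 3 were lower. Nos2, the inducible nitric oxide synthase, measured 38.6, 37.4 and 33.7 CPM in KO and 61.1, 75.3 and 66.2 CPM in WT, without overlap (log2 -0.89, edgeR FDR 0.000725). DESeq2 did not call Nos2 (log2 -0.90, DESeq2 adjusted p 0.441). Its estimates were 0.62 in untreated cells and -1.53 with OVA.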
